A study of Mus musculus with 16 samples.

Results

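Pmaip1, which encodes the pro-apoptotic protein NOXA, was followed together with the BCL2 family in glomerular RNA of Wt1 mutant mouse embryos. The members were Pmaip1 and 9 relatives, each chosen by symbol and represented by its gene-level transcript cluster of highest mean over the 8 arrays and by every exon-level probe set carrying its symbol. Of the 10 genes 9 were measured, out of 18302 gene symbols with a transcript cluster, and they held 76 of 375483 probe sets; Bax was not analysed here. Each of the 9 had a single transcript cluster. Pmaip1 was selected on its measured log2 difference between mutant and wild type: it differed between the genotypes in these same arrays. Its values are therefore given as a description with no test. The other 8 were chosen as its family and were tested.

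The study compared glomeruli of 4 embryos labelled Frasier, with a wt1(+KTS) mutant genotype, with glomeruli of 4 wild-type embryos, all at E18.5 (late gestation) and all on a mixed C57Bl6 and DBA2 background. WT1 is a zinc finger transcription factor of podocytes, made with or without a short KTS insert, and Frasier syndrome is a human kidney and gonad disorder with too little of the insert-bearing form. Glomeruli were recovered with perfused magnetic beads, so other kidney cells may remain. The 16 deposited samples are a gene-level and an exon-level summary of the same 8 Affymetrix exon arrays, so n was 4 embryos per genotype throughout. The labels give neither zygosity, sex nor litter, and the letter that ends each sample code is never shared by the genotypes, so that genotype and whatever the letter marks cannot be told apart. Wt1 itself stood at a mean log2 value of 8.91 ± 0.11 in the mutants and 9.01 ± 0.066 in the wild type (SD, n = 4 each), which does not check the splice change. The podocyte markers Nphs1, Synpo and Podxl were among the 6 of 6 measured podocyte markers above the table's median. Wild-type replicate 4 stood apart from the other arrays, with a median correlation of 0.887 to them against 0.919 to 0.938 for the other 7. Y-linked genes gave a high signal on 2 of the 4 arrays of each genotype and a low one on the others.

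BCL2 family proteins decide whether the outer mitochondrial membrane is opened, the step that releases cytochrome c and starts the caspase cascade. BAX and BAK form the pores, BCL2, BCL-XL (Bcl2l1) and MCL1 hold them in check, and the BH3-only proteins NOXA (Pmaip1), PUMA (Bbc3), BIM (Bcl2l11), BID and BAD relieve that check or engage the pore formers directly. NOXA binds MCL1 in particular and is known as a transcriptional target of p53. In the kidney the balance is known from mice: embryos without Bcl2 develop cystic, underdeveloped kidneys, and removal of Bim prevents this.

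Promoter sequences are shown for the searched members whose promoters hold letters of a WT1 site, since WT1 is a transcription factor. Which of its forms, with or without the KTS insert, binds such letters was not tested. The windows cover 250 bases before to 50 bases after an annotated start and come from RefSeq on GRCm38.p6. Both strands of the 14 windows of the other 8 members were searched for GCGGGGGCG, a site bound by WT1 and EGR1, and for GCGTGGGNG, a core of the WT1 site. The promoter of Pmaip1 was not searched. The first was found in 2 of the 14 windows, against 2.91% of the 32851 windows searched, and the second in 1 of the 14, against 1.90%. Windows on the chromosome of Pmaip1 were left out of the 32851. Bbc3 and Bcl2l1 have 3 windows each, so the 14 are not separate genes. The Bcl2l11 window at chr2:128125788-128126087 (plus strand) holds GCGGGGGCG beginning 50 bases before the start. The Bbc3 window at chr7:16309333-16309632 (plus strand) holds GCGGGGGCG beginning 49 bases and GCGTGGGAG beginning 38 bases before the start, and they do not overlap. Capitals mark the matches, which describe letters and are not evidence of binding.
Bcl2l11: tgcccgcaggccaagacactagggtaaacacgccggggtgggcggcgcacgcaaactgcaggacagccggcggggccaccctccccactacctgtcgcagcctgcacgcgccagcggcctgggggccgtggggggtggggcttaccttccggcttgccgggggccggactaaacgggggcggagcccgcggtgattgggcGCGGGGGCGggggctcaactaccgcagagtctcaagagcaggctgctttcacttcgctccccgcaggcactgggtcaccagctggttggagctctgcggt
Bbc3: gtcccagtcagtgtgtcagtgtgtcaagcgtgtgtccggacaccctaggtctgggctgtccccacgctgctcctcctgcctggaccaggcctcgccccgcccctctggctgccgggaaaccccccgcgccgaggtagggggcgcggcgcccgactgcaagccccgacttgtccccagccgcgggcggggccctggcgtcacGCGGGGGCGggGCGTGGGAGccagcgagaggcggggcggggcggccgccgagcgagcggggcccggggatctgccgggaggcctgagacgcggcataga

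Pmaip1 was the member with the large difference. At the gene level (transcript cluster 6861662, chromosome 18) its log2 values were 7.10, 7.73, 7.68 and 7.19 in the mutants, replicates 1 to 4, against 5.56, 5.90, 5.19 and 5.36 in the wild type. Every mutant lay above every wild-type embryo, and the lowest mutant exceeded the highest wild-type value. The means were 7.42 ± 0.33 in the mutants and 5.50 ± 0.31 in the wild type (SD, n = 4 each), a log2 difference of 1.92 ± 0.20 (SE), or 3.79-fold. Leaving out each array in turn, the difference ranged from 1.82 to 2.06.

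Within each genotype Pmaip1 was not even. Mutant replicates 2 and 3, the arrays with high Y-linked signal, were the higher ones, whereas wild-type replicate 4 (high signal, 5.36) lay below replicate 1 (low signal, 5.56). Compared within arrays of like Y-linked signal, chosen after seeing the data, the difference was 2.07 in the high arrays (means of 7.70 in 2 mutants and 5.63 in 2 wild-type embryos) and 1.77 in the low arrays (7.14 and 5.37). As every mutant lay above every wild-type embryo over all 8 arrays, no such split could make the genotypes overlap. The part of the Y-linked signal in the spread within genotypes was not tested.

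**Figure D1:**
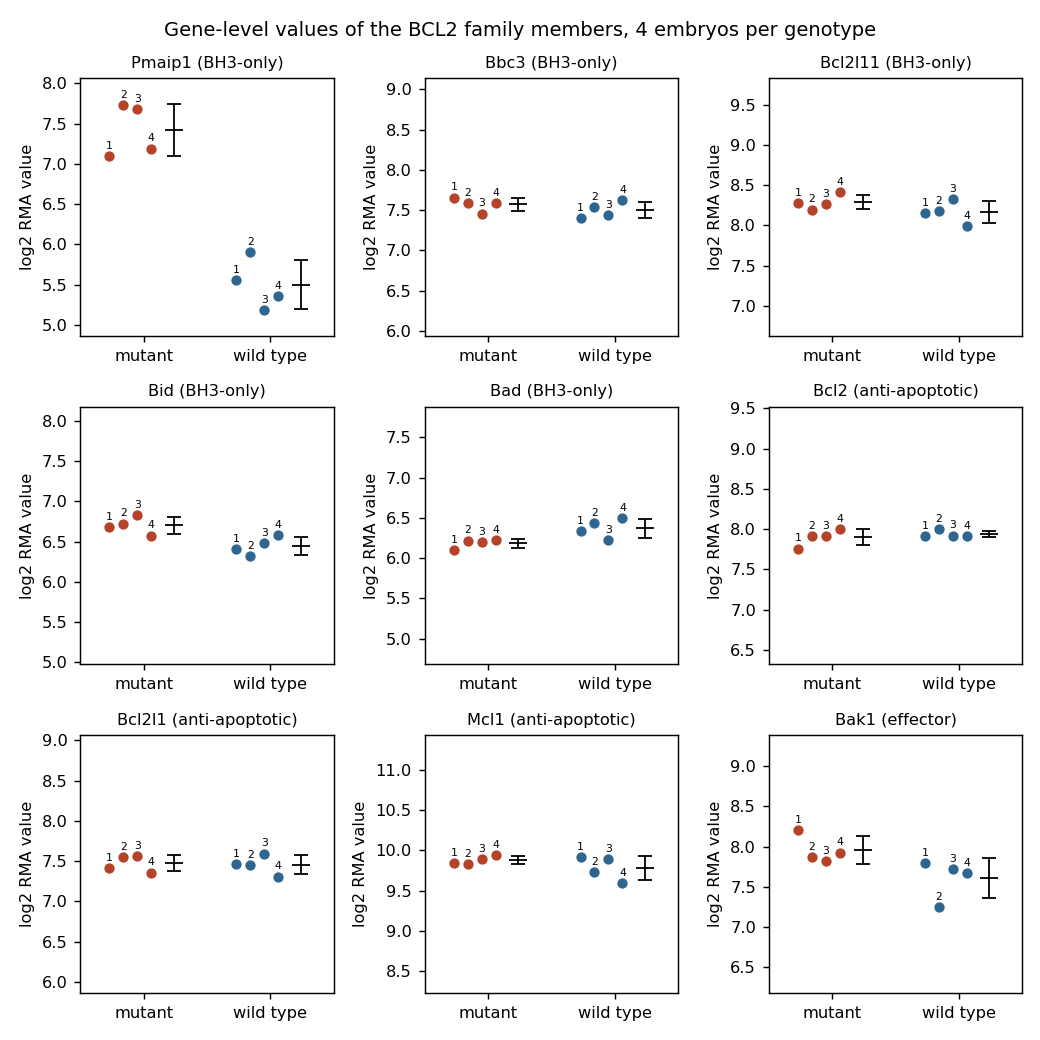
Gene-level log2 RMA values of the 9 measured members in mutant (left) and wild-type (right) embryos; points are embryos numbered by replicate, bars are the mean and SD, and every panel spans an equal range. Pmaip1 separates by 1.92 between the genotype means, while the means of the other 8 genes differ by −0.19 to 0.35.

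Both Pmaip1 probe sets of the exon-level summary showed the same direction, with unequal size. The transcript cluster's value is the average of these 2 probe sets, with the same difference of 1.92. The exon level is therefore a breakdown of the gene-level value and not a separate readout. Probe set 4708257 had log2 values of 7.66, 8.40, 8.42 and 8.06 in the mutants against 5.87, 5.88, 5.00 and 5.33 in the wild type, a difference of 2.61 ± 0.24 (SE, n = 4 each), or 6.12-fold. Probe set 4800421 had values of 6.53, 7.06, 6.94 and 6.32 in the mutants against 5.25, 5.92, 5.37 and 5.38 in the wild type, a difference of 1.23 ± 0.21, or 2.35-fold. The mutants were above the wild type without overlap in both. All 4 wild-type values of both probe sets lay below the exon table's median of 6.81, where RMA compresses differences. With only 2 probe sets Pmaip1 could not enter the test of exon usage, so the unequal sizes were not tested.

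The other BH3-only genes did not share this size of difference. Bbc3 (transcript cluster 6958845), the gene of PUMA and another p53 target, stood at 7.65, 7.58, 7.46 and 7.59 in the mutants and 7.40, 7.54, 7.44 and 7.62 in the wild type. Its genotypes overlapped, and the difference of 0.070 (95% interval −0.17 to 0.31) did not pass (limma adjusted p = 0.81). Bcl2l11 (cluster 6881031), whose protein BIM binds all the anti-apoptotic members, stood at 8.28, 8.20, 8.27 and 8.41 in the mutants and 8.15, 8.18, 8.33 and 8.00 in the wild type. These values overlapped too, with a difference of 0.12 (−0.13 to 0.38, adjusted p = 0.666).

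Bid (cluster 6956981), which links death receptors to mitochondria once caspase-8 has cut it, stood at 6.68, 6.72, 6.83 and 6.57 in the mutants and 6.40, 6.32, 6.48 and 6.58 in the wild type. Only the lowest mutant and the highest wild-type value crossed, and the difference of 0.26 (0.0034 to 0.51) did not pass over all rows (adjusted p = 0.345). Bad (cluster 6867879), a BH3-only protein held inactive by growth factor signalling, stood at 6.10, 6.22, 6.20 and 6.22 in the mutants and 6.34, 6.43, 6.23 and 6.50 in the wild type. The mutants were below the wild type without overlap, but by a difference of only −0.19 (−0.43 to 0.054, adjusted p = 0.471), and the nearest values of the genotypes, 6.22 and 6.23, almost met.

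Each anti-apoptotic gene differed by less than 0.1. Bcl2 (cluster 6761256) stood at 7.76, 7.91, 7.92 and 8.00 in the mutants and 7.92, 8.00, 7.92 and 7.91 in the wild type, a difference of −0.041 (95% interval −0.28 to 0.19, adjusted p = 0.894). Bcl2l1 (cluster 6892180), the gene of BCL-XL, stood at 7.42, 7.55, 7.56 and 7.36 in the mutants and 7.46, 7.45, 7.59 and 7.31 in the wild type, a difference of 0.018 (−0.24 to 0.27, adjusted p = 0.959). Mcl1 (cluster 6899694), whose protein is the preferred partner of NOXA, stood at 9.84, 9.83, 9.89 and 9.94 in the mutants and 9.91, 9.73, 9.89 and 9.59 in the wild type, a difference of 0.096 (−0.16 to 0.35, adjusted p = 0.746). In all 3 the genotypes overlapped. Transcript arrays do not show MCL1 protein, whose level is known to be set largely by its degradation.

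Of the pore formers, Bak1 was measured. Bak1 (cluster 6854514) stood at 8.20, 7.87, 7.82 and 7.93 in the mutants and 7.80, 7.25, 7.72 and 7.67 in the wild type. The mutants were above the wild type without overlap, by a narrow gap, and the difference of 0.35 (95% interval 0.0039 to 0.69) did not pass over all rows (adjusted p = 0.346). Wild-type replicate 2 was the lowest array, and without it the difference was the smallest of the 8 runs that left out an array, 0.23.

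Across the 8 tested members, limma called 0 (2 had an unadjusted p under 0.05, Bid and Bak1), where it called 1.45% of the 18302 symbols and 0.827% of all 93623 clusters. An unadjusted p under 0.05 was found for 16.6% of symbols. Of the 8, 6 differences were positive, against 56.6% of symbols, and their median was 0.083, against 0.032 over the symbols. Genotypes did not overlap in 2 of the 8, Bad and Bak1, against 17.5% of symbols and 9.54% of all clusters. Their 95% intervals ran from −0.43 at the lowest to 0.69 at the highest, so a change of 1 on the log2 scale lay outside each of them. Because RMA compresses dim values, these limits apply to the array's scale. With each gene's exon-level probe sets averaged in place of its cluster, Bid differed by 0.076, Bbc3 by 0.22, Bcl2l11 by 0.24, Mcl1 by 0.17, Bcl2l1 by 0.055 and Bcl2 by −0.0084, each over 1.5 times from its cluster's value, and limma again called 0 of the 8 (lowest adjusted p 0.127).

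The exon-level summary gave 74 probe sets for these 8 genes, 53 of them above the exon table's median. Limma called 1 of the 74 (1.35%), higher in the mutants, where it called 2.67% of all probe sets (1.46% higher and 1.21% lower) and 3.57% of those with 1 symbol. An unadjusted p under 0.05 was found for 19 of the 74, against 23.3% of 1-symbol probe sets, and genotypes did not overlap in 10, against 17.1%. The median difference was 0.078, against 0.077 over the 1-symbol probe sets.

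**Figure D2:**
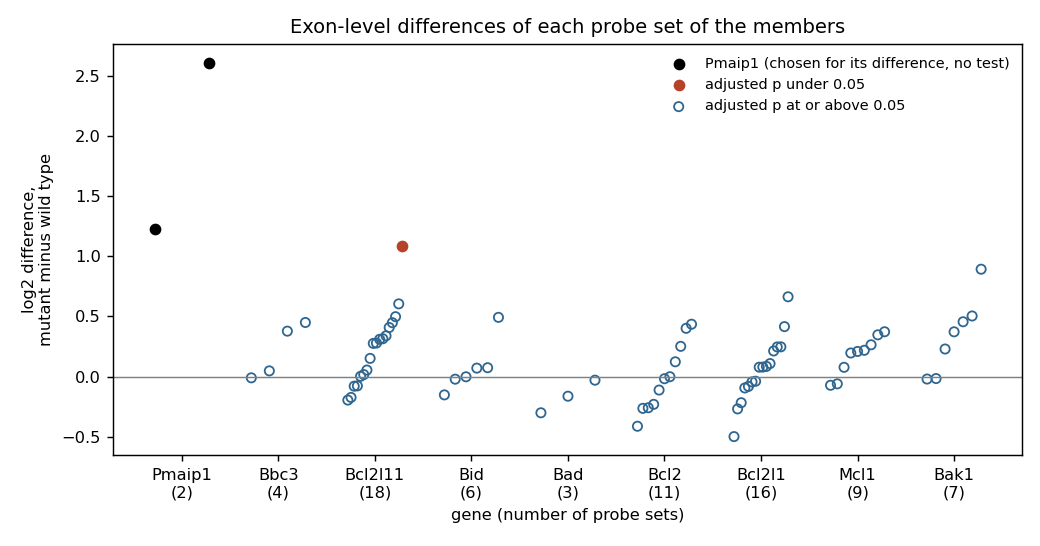
Log2 difference, mutant minus wild type, of each exon-level probe set of the 9 measured members, sorted within a gene; the number of probe sets is under each name, black points are Pmaip1, the filled red point passed limma's threshold and open points did not. The Pmaip1 probe sets lie at 1.23 and 2.61, and 1 of 18 Bcl2l11 probe sets stands at 1.08 above the rest of its gene.

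The called probe set belonged to Bcl2l11. Probe set 4915956 had log2 values of 8.70, 8.50, 8.56 and 8.61 in the mutants, against 7.67, 7.58, 7.72 and 7.08 in the wild type. The genotypes were apart by more than the range within either one, and the lowest array was wild-type replicate 4. Its difference was 1.08 ± 0.16 (SE, n = 4 each), or 2.12-fold (limma adjusted p = 0.0105), and the call held whichever array was left out (adjusted p 0.0093 to 0.037). Without wild-type replicate 4 the difference was 0.94.

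The remaining 17 Bcl2l11 probe sets differed by −0.20 to 0.60 and 0 of them passed limma's threshold, with 5 at an unadjusted p under 0.05. Of all 18, 14 were positive and 5 had genotypes without overlap (against 17.1% of 1-symbol probe sets), each higher in the mutants. Exon usage was tested as a probe set's level relative to the mean of its gene's probe sets on the same array. Probe set 4915956 had a usage value of 0.85 ± 0.12 (SE, adjusted p = 0.0219), the 1 call among 51 members' probe sets tested, where 0.513% of all 128589 were called. An unadjusted p under 0.05 was found for 12 of the 51, against 20% of all tested. The usage call was lost when mutant replicate 1, 2, 3 or 4 or wild-type replicate 2 was omitted (highest adjusted p 0.075) and with the replicate number as a block (0.054), while the value stayed between 0.75 and 0.93. BIM is known to be made in several lengths by alternative splicing, but the files do not say which exon a probe set covers, so this probe set is not assigned to a form.

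The probe sets of the other genes held smaller departures. In Bak1 they ran from −0.021 to 0.89. The highest, 4641264, had values of 7.05, 6.64, 6.68 and 6.30 in the mutants against 5.94, 5.25, 5.96 and 5.95 in the wild type, without overlap and short of the threshold (adjusted p = 0.0564). It passed under 3 alternatives (adjusted p 0.036 to 0.041). In Bbc3 the brightest probe set, 5587199, differed by −0.011, while 5173449, below the table's median, differed by 0.45 (adjusted p = 0.093, and 0.0498 with 1-symbol probe sets alone). Bid ranged from −0.15 to 0.49 over 6 probe sets, and Bad from −0.30 to −0.030 over 3.

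The anti-apoptotic genes showed probe sets on both sides of 0. Bcl2 ranged from −0.41 to 0.44 over 11 probe sets, 7 of them negative. Bcl2l1 ranged from −0.50 to 0.66 over 16, 9 of them positive, and both ends were dim probe sets below the table's median. Mcl1 ranged from −0.073 to 0.37 over 9, all 9 above the median and 7 positive. In none of these 36 probe sets were the genotypes apart, and limma called 0, while 6 had an unadjusted p under 0.05. Over all 1-symbol probe sets the shares were 17.1% without overlap, 3.57% called and 23.3% at an unadjusted p under 0.05.

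**Figure D3:**
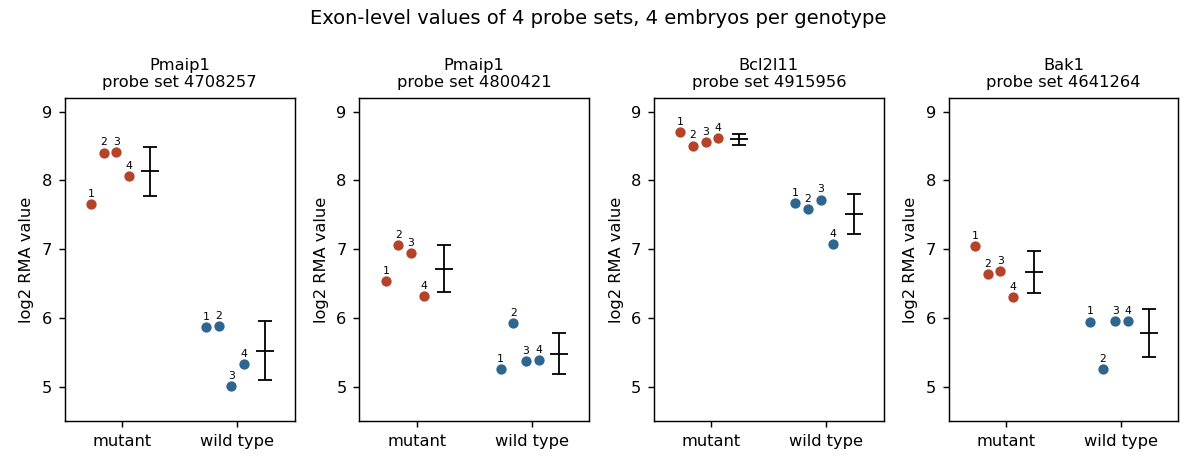
Exon-level log2 RMA values of 4 probe sets in mutant (left) and wild-type (right) embryos; points are embryos numbered by replicate, and bars are the mean and SD. The Bcl2l11 probe set keeps all mutants at or above 8.50 and all wild-type embryos at or below 7.72, and the Bak1 probe set keeps them at or above 6.30 and at or below 5.96.

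The wider death machinery was then described by lists. Of 17 other BCL2 family genes 13 were measured and limma called 0, with 2 at an unadjusted p under 0.05 (against 16.6% of all symbols). These were Bok, a BAX-like pore former (mean 7.09 in the mutants, 6.71 in the wild type), and Bcl2l13, a mitochondrial relative (9.40 and 9.02). Both differed by 0.38, without overlap (adjusted p = 0.201 and 0.175). Bcl2l2, the anti-apoptotic BCL-W, differed by −0.26 (0.411). Of 14 measured genes that bind family proteins or set their turnover limma called 0, also with no adjustment of p (against 16.6% of symbols). The extremes ran from −0.16 for Dynll2, a dynein light chain that holds BMF, to 0.23 for Bag1, a BCL2-binding co-chaperone. Usp9x, which removes ubiquitin from MCL1, differed by 0.17.

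Downstream, limma called 0 of 19 measured caspase, apoptosome and inhibitor genes (median 0.066). An unadjusted p under 0.05 was found for 3 of the 19, against 16.6% of symbols. The inhibitor of apoptosis Birc3 differed by 0.34 and the caspase Casp6 by 0.28, both without overlap and short of the threshold (adjusted p = 0.214 and 0.305), and the mitochondrial nuclease Endog by 0.34 (0.347). Among 14 measured death receptor genes 1 was called (7.1%, against 1.45% of symbols). An unadjusted p under 0.05 was found for 8 of the 14, 6 higher and 2 lower in the mutants, against 16.6% of symbols. Tnf, the ligand of TNF receptors, stood at 6.54, 7.08, 6.46 and 6.44 in the mutants against 5.55, 5.02, 5.02 and 5.37 in the wild type. It rose by 1.39 ± 0.19 on the log2 scale (SE, adjusted p = 0.0121), a call kept whichever array was left out (highest 0.049) and lost with the replicate number as a block (0.070). The mean of Tnf over the 8 arrays, 5.93, lay below the gene table's median of 6.035, where RMA compresses differences.

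The other death receptor genes did not pass the threshold on adjusted p. Tnfrsf10b, the mouse TRAIL receptor and a p53 target, had means of 7.86 in the mutants and 7.14 in the wild type (difference 0.72, adjusted p = 0.143). Ripk3, a kinase of necroptosis, differed by 0.40 (0.194). Fas, another receptor that p53 induces, was lower in the mutants without overlap, by −0.39 (0.136).

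Since Pmaip1 is induced by p53 and by the integrated stress response, genes of both pathways were listed. Of 28 measured p53 genes limma called 0, 8 had an unadjusted p under 0.05, all higher in the mutants (against 16.6% of all symbols in either direction), and 22 differences were positive, with a median of 0.13 against 0.032 over all symbols. Perp, a desmosomal p53 target, differed by 0.56, the metabolic regulator Sesn2 by 0.51 and the kinase Plk3 by 0.60 (adjusted p = 0.112, 0.126 and 0.135). Of 22 measured stress response genes limma called 0, and the median was 0.100. An unadjusted p under 0.05 was found for 6, all higher, against 16.6% of all symbols in either direction. Asns, asparagine synthetase, differed by 0.55, the transcription factor Atf3 by 0.44 and Ddit3, which encodes CHOP, by 0.44 (adjusted p = 0.0817, 0.105 and 0.131).

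**Figure D4:**
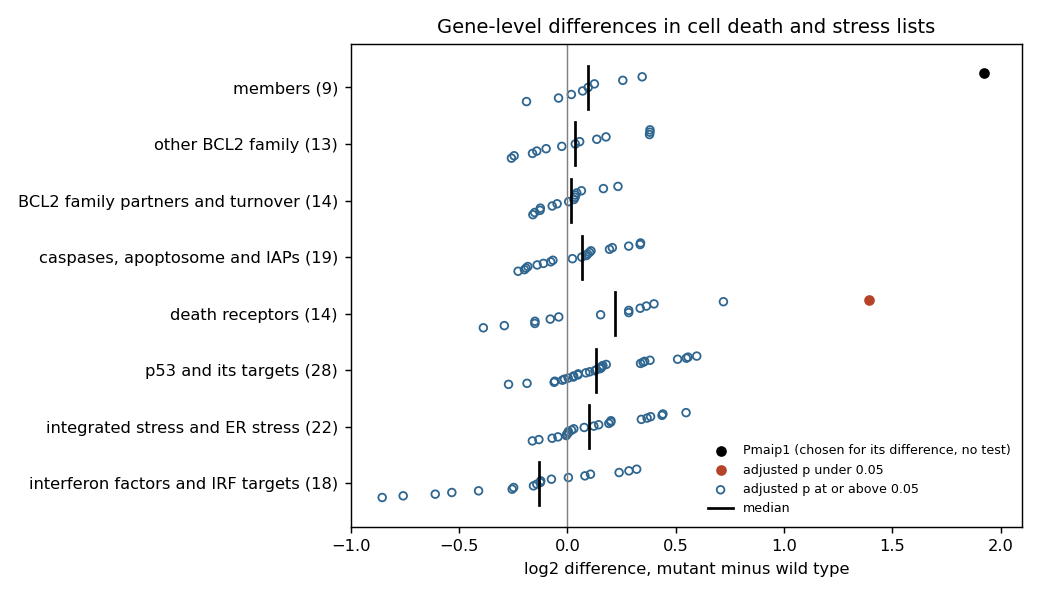
Gene-level log2 difference, mutant minus wild type, of the members and of 7 lists of cell death and stress genes; each point is a gene, the black line is the list's median, the number measured is in brackets, the black point is Pmaip1 and the filled red point passed limma's threshold. Pmaip1 lies at 1.92 and Tnf at 1.39; the next highest is Tnfrsf10b at 0.72, and the lowest is Usp18 of the interferon list at −0.85.

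The genes whose level across the 8 arrays was most like that of Pmaip1 were sought among 15505 1-symbol clusters in the brighter part of the table (mean not below its median). The 6 most alike were Smoc2, a matricellular protein, the surface glycoprotein Cdcp1, Klhl36, the integrin chain Itgb4, the keratin Krt19 and the adhesion receptor Adgrg2, with Pearson r of 0.987 to 0.979. As the arrays fall into 2 genotypes, much of such a value is the difference between them. For deviations from each genotype's mean the 6 highest were Fignl1, Ift81, Igkv4-57-1, Cdcp1, Iftap and Tada1 (r of 0.942 to 0.933), so Cdcp1 stood in both lists. Both lists are the top of 15505 clusters over only 8 arrays. How high r would reach by chance in such a search was not tested. Cdcp1 was at 7.07, 7.35, 7.33 and 7.11 in the mutants and 6.57, 6.86, 6.56 and 6.63 in the wild type. Among the members, deviations of Bak1 ran against those of Pmaip1 (r = −0.78) and those of Bad (0.46) and Bcl2 (0.43) ran with them; these are descriptions over the same 8 arrays.

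Markers of several kidney cell types moved with the genotypes beside Pmaip1. The counts of called markers stand against 1.45% of all symbols, and those at an unadjusted p under 0.05 against 16.6%. That unadjusted level was reached by 5 of 6 parietal epithelium and 3 of 6 nephron progenitor markers, all higher in the mutants. It was also reached by 4 of 6 podocyte and 5 of 6 endothelial markers, all lower. Of 6 parietal epithelium markers 2 rose, Krt19 and Cd44, and all 6 differences were positive, with list means per array between 8.655 and 8.90 (mutants) and between 7.98 and 8.30 (wild type). Only 1 of the 2 stayed called without mutant replicate 2 or 3 or without wild-type replicate 1 or 2. The nephron progenitor list lay between 7.85 and 7.97 in mutants and between 7.38 and 7.55 in wild type, with Six2 and Eya1 called of 6. Of its differences 5 were positive and 1 negative, and Cited1 (−0.022) and Meox1 (0.0014) hardly differed. The podocyte list lay between 8.37 and 8.53 in mutants and between 8.84 and 9.04 in wild type, with Ptpro called lower of 6, and the endothelial list between 8.91 and 9.02 in mutants and between 9.34 and 9.58 in wild type, with Ehd3 called lower of 6. Leukocyte markers lay between 6.42 and 6.63 in mutants and between 6.63 and 6.79 in wild type, with 0 of 8 called by limma and 2 at an unadjusted p under 0.05. In such bulk RNA fewer cells of a type and less RNA per cell cannot be told apart, and the part of these markers in the Pmaip1 difference was not tested. The array gives no detection call, so no marker is known to be at 0.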

How the data were processed

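Glomerular RNA was measured on exon arrays. The authors deposited log2 values made with RMA in Partek. The submitters' processing notes name these tools and the build mm9, and no version is given there. Values ran from 3.57 to 14.9, from which base 2 was inferred. RMA pulls dim probes toward a floor. Symbols came from the platform annotation, updated through RefSeq. Differences, mutant minus wild type, went through lmFit and eBayes of limma 3.58.1 (R 4.3.3, two-sided). P-values were adjusted by Benjamini-Hochberg over all rows, and a gene or probe set under 0.05 is called. Exon usage was tested on 1-symbol probe sets at or above the 50th percentile of means in genes with at least 3 of them. The gene-level, exon-level and usage tests were tried on simulated data with added changes, and the other steps were not. Arrays have no read depth; their number limits the precision. The members and lists were chosen with earlier results of these data known. All members were named, with each one's called and most extreme probe sets, and from each list of death and stress genes the called genes and the 3 of smallest p otherwise. The rule covered the cell type marker lists too, but of these mainly the called genes are named.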

Additional observations from a re-analysis of the deposited data

Results flagged for a closer look

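Among 54 groups of 4 values checked for the named clusters and probe sets, 2 held an array far from the other 3, and chance alone gives about 1 in 20. Bcl2 in wild-type replicate 2 stood at 8.00, while the other wild-type arrays lay between 7.91 and 7.92, a spread so small that the gap itself was under 0.1. Bak1 probe set 4641264 stood at 5.25 in wild-type replicate 2, while the other wild-type arrays lay between 5.94 and 5.96. The Bak1 cluster was lowest in that array too, but its value averages the gene's probe sets, this one included, so it is not a separate observation.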

How the results depend on the processing

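The gene-level difference of Pmaip1 stayed between 1.82 and 2.07 under each alternative except the arrays of low Y-linked signal (1.77). Blocks balanced over the genotypes, trend and robust options and row filters cannot move a difference of means, and averaging its probe sets returns the cluster's own value. As Pmaip1 was chosen for its difference in these arrays, this range is a description and no check. Of the other 8 members 0 was called in any of 17 alternatives (lowest adjusted p 0.116). Each member has 1 cluster, so no other cluster could be tried. Gene-level calls over all rows (774) numbered 185 with the replicate block, 258 with the sample-code letter as a random block, 1311 with array weights, 1199 with rows at or above the 50th percentile, 1408 with 1-symbol rows, 2102 with probe sets averaged per gene (26.45% of them lower in the mutants, against 59.3%), and 268 to 758 without one array. Exon-level calls (10035) numbered 2831 with the letter, 16875 with trend and robust options, 15378 with array weights, and 3513 to 9913 without one array; members' probe sets called numbered 2 with trend and robust options, 2 with array weights and 3 with 1-symbol rows. Usage calls (660) numbered 115 with the replicate block, where 0 members' probe sets were called, and 81 to 1955 without one array (members 0 to 1); the diffSplice F test called 2830 genes (27.55% of 10274) against 543, and 1 of the 6 members it tested, Bcl2l11 (adjusted p = 0.003). Values near 0 changed sign: without one array Bcl2 ranged from −0.076 to 0.0056, Bcl2l1 from −0.030 to 0.065, and the probe sets Bbc3 5587199 from −0.081 to 0.094 (0.028 with array weights), Bak1 5095521 from −0.12 to 0.054 and Bad 4461767 from −0.12 to 0.12. The causes were not tested. Same-numbered embryos had deviations correlating at −0.0048, 0.069, 0.26 and 0.20. Of the 8 arrays 4 correlated best with their own number, those of replicates 3 and 4. These values do not settle whether the numbers mark pairs. The labels name no pairs, so the main tests did not use the numbers, and the calls with them as a block are given above.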

Other observations

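Interferon regulatory factors and their targets were also listed. For these and the markers below, the shares over all symbols were 1.45% called and 16.6% at an unadjusted p under 0.05. Of 18 measured genes limma called 0 (5 at an unadjusted p under 0.05, 4 of them lower in the mutants), 12 differences were negative and the median was −0.13. The 1 higher gene at that level was Irf1, with a difference of 0.32 (adjusted p = 0.343). Oasl2 differed by −0.76, Irf7 by −0.53 and Stat2 by −0.41 (adjusted p = 0.203, 0.244 and 0.266). Without wild-type replicate 4, an alternative chosen after seeing the data, 3 genes were called lower in the mutants: Oasl2 (−1.01), Irf7 (−0.73) and Gbp3 (−0.93). Of the tubule and stroma markers, Slc34a1 and Slc5a2 were called lower (2 of 5 proximal tubule markers, 0 or 1 without any one array). Hsd11b2 was called higher (1 of 6 distal markers, not called without wild-type replicate 2), and the other 5 distal differences were negative. An unadjusted p under 0.05 was found for 3 of the 5 proximal tubule markers, all lower. The same held for 2 of the 6 distal markers, 1 higher and 1 lower. Limma called 0 of 6 stromal, 0 of 5 mesangial and 0 of 2 erythroid markers, with 0, 2 and 0 of these at an unadjusted p under 0.05.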
